A study of Mus musculus with 24 samples.

Results

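The genes described here encode proteins of the mitochondrial ribosome. They were picked by name, as the protein-coding genes of the deposited gene table whose symbol begins with Mrpl or Mrps followed by a number, pseudogenes left out. Among the table's 56941 genes there were 78 members, 49 named for the large subunit (Mrpl) and 29 for the small subunit (Mrps). Labelled RNA of E14TG2a mouse embryonic stem cells was measured after 10, 20, 40 or 60 min with 1 mM EU (5-ethynyl uridine), a nucleoside that polymerases build into growing RNA and that allows the new RNA to be captured and sequenced. Cells without an edit (WT), cells with a knockout of Alkbh5 (KO) and cells whose Alkbh5 lacks the C-terminal intrinsically disordered region (dcIDR) were compared, with 2 dishes for each genotype and time, 24 libraries in all. The medium of every group contained serum, LIF and the kinase inhibitors PD0325901 and CHIR99021. The labels name 1 line per genotype and do not say more, so p-values reflect the spread between dishes and not that between independent clones. ALKBH5 is a demethylase that takes m6A off RNA.

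The mitochondrial ribosome translates the few messages of the mitochondrial genome, all of which encode subunits of the respiratory chain. Its ribosomal RNAs come from mitochondrial DNA, whereas all of its proteins are encoded in the nucleus, made in the cytoplasm and imported. Some have counterparts in bacteria and others are found only in mitochondria. Their genes lie scattered over the nuclear genome and are known as housekeeping genes whose promoters often hold sites for GABP (an ETS-family factor, also called NRF2), NRF1 and YY1. Symbols do not always give the place of the protein: the products of Mrps18a and Mrps30 sit in the large subunit, and that of Mrps36 is known as a part of the 2-oxoglutarate dehydrogenase complex. Here the members lay on 17 chromosomes, 9 of them on chromosome 6 or 8. Another gene started head to head within 1000 bp of 33 members, and 18 had more than 10% of their exonic bases inside exons of another gene, so that reads of these genes may be shared. Mrpl46 (large subunit) and Mrps11 (small subunit) share 1 promoter region.

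Short sequences known as cores of the sites of these factors were counted in the members' promoters. RefSeq windows of 300 bases (250 before and 50 after the start, build GRCm38.p6, which is not the build named by the submitters) were at hand for 69 members with 75 starts. The ETS core CCGGAAG or, on the other strand, CTTCCGG occurred in 26 windows, 34.7%, against 8.86% of all 32851 windows and 11.6% of 21263 windows of coding genes. The YY1 core AAGATGGC (other strand GCCATCTT) occurred in 16% against 2.75% of all windows, the NRF1 core GCATGCGC (other strand GCGCATGC) in 10.7% against 2.71%, and the palindrome CTCGCGAG, known from bidirectional promoters, in 2.67% against 0.919%. The palindrome was present in only 2 of the members' windows. In windows of coding genes the shares were 3.05% for the YY1 core, 3.52% for the NRF1 core and 1.24% for the palindrome. Each motif was counted on its own, so a window may count under several. At least 1 of these 4 sequences was present in 50.7% of the members' windows and 13.9% of all windows, and the median GC content was 58.7% against 52.7%. These matches describe letters and not binding, and no test compared the shares. For 5 members that passed a test below, chosen after their values were seen, 150 bases are printed 5′ to 3′ (120 before and 30 from the start on), with motif matches in capitals. Mrpl43 (chr19:45006413-45006562, minus strand) holds the ETS core at 2 places. Mrps27 (chr13:99344666-99344815, plus strand) and Mrps18a (chr17:46110884-46111033, plus strand) hold the ETS core upstream and the YY1 core just after the start. Mrpl51 (chr6:125192080-125192229, plus strand) holds only the ETS core, and Mrpl28 (chr17:26123383-26123532, plus strand) is shown as a member whose window holds none of the 4.
Mrpl43: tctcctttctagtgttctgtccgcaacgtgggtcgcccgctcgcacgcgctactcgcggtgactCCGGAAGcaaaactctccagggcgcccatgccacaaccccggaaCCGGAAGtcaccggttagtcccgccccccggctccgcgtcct
Mrps27: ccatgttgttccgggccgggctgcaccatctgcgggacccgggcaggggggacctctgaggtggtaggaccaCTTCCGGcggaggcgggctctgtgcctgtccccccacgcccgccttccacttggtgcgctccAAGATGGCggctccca
Mrps18a: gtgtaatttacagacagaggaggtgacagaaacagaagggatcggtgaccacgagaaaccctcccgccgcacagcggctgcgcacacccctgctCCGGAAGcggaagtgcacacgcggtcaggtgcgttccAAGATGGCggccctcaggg
Mrpl51: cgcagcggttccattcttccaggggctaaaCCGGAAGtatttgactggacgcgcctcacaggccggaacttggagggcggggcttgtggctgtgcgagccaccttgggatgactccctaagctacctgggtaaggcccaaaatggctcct
Mrpl28: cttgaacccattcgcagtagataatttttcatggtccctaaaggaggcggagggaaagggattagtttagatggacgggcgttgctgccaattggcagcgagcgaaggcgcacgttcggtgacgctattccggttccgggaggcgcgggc

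Gene reads per library ranged from 3129081 to 22000538, reads of the EU-labelled Drosophila RNA added to each sample from 6037 to 23382, and genes with reads from 26810 to 34172. The members took 8545 to 64269 reads per library, 0.2691 to 0.3387% of gene reads, and their median count per library ran from 15 (Mrps34) to 2502 (Mrpl15). Both dcIDR libraries of 10 min stood apart, with 250.4 and 260.2 gene reads per spike-in read where all other libraries had 333.5 to 2241.8. Reads over Alkbh5 were present in 8 of 8 libraries of every genotype, and relative to the median gene Alkbh5 differed from WT by −0.60 ± 0.05 in KO (limma, adjusted p = 4.4e-09) and by −0.46 ± 0.05 in dcIDR (limma, adjusted p = 6.98e-07). Neither passed on the deposited spike-in scale, with −0.29 in both (limma, adjusted p = 0.125 for Alkbh5 in KO and 0.229 in dcIDR). Reads over the whole gene check neither edit. Embryonic stem cell markers (8 genes, Pou5f1 and Nanog among them) summed to 3547 to 3763 RPM (gene reads scaled to a common library total) in WT, 3310 to 3729 in KO and 3399 to 3781 in dcIDR. Neural markers (Pax6, Sox1, Nes, Tubb3) summed to 154.3 to 185 in WT, 267.7 to 370.2 in KO and 106.5 to 144.3 in dcIDR, and so moved with the genotype. Sums of 6 endoderm and mesoderm markers (10.01 to 18.72 over all libraries) and 4 trophoblast markers (1.058 to 7.988) overlapped between the genotypes. Mean values under 1 RPM were those of Sox17, T, Cdx2, Hand1 and the fibroblast marker Col1a2 in every genotype, Krt7 in KO and dcIDR, and Gata6 in KO. Single markers in these lists passed all the same (limma, relative to the median gene): of the stem cell markers 1 was higher and 4 lower in KO, led by Tfcp2l1 at −0.61, and 1 higher and 2 lower in dcIDR. Krt7 of the trophoblast was lower in KO at −1.42, and Gata6 of the endoderm was higher in dcIDR at 1.04. The 4 fibroblast markers summed to 74.23 to 91.73 in WT, 59.32 to 73.9 in KO and 44.36 to 89.61 in dcIDR, so all KO sums lay below all WT sums. Of the 3 fibroblast markers tested, 1 was lower in KO and 1 lower in dcIDR, and 0 were higher in either. What part these cell type markers have in any difference below was not tested. In bulk samples, fewer cells of a type and less RNA per cell cannot be told apart.

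The level of a gene is its number of reads at a common number of spike-in reads (11714). At 60 min in WT the members' levels per kb of exon spanned 2 orders of magnitude around a median of 228.4, as the plot of level per kb shows. Mrpl18 (ENSMUSG00000057388), a protein of the central protuberance of the large subunit, had the highest value, 1366, given as 1 mean because the division of its reads between both libraries was not clear. Of the exonic bases of Mrpl18 10.1% lie in exons of Tcp1. Mrpl45 (ENSMUSG00000018882), which sits at the exit of the peptide tunnel and helps to anchor the ribosome to the inner membrane, followed with 623.5 and 751.4 per kb in the 2 libraries. Mrpl39, a large subunit protein of mitochondria only, had 609.5 and 739.8, Mrpl52 had 474.8 and 654.8, and Mrps15 of the small subunit 502.6 and 581.8. Both libraries placed Mrpl45, Mrpl39 and Mrpl52 in this order, while Mrps15 lay above Mrpl52 in library A and below it in library B. The lowest levels per kb were those of Mrps12, a protein of the decoding centre (63.63 and 73.79), Mrpl14 (59.77 and 66.38), Mrpl48 (48.94 and 62.24), Mrpl23 (35.24 and 45.04) and Mrps34 (10.99 and 14.43). Both libraries placed Mrps34 (ENSMUSG00000038880), a small subunit protein whose loss destabilizes that subunit, below all other members. Its count rests on few reads, and 77.8% of its exonic bases lie in exons of Mapk8ip3 and Nme3. Without Mrpl18 and Mrps34 the mean levels per kb ran from 40.14 (Mrpl23) to 687.4 (Mrpl45). Across the 78 genes the level, not divided by length, was higher for longer genes (Spearman 0.68 with exonic length and 0.44 with gene span, a description across genes). Labelled total RNA contains introns, and how reads in them were counted is not given in the sources used here.

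**Figure D1:**
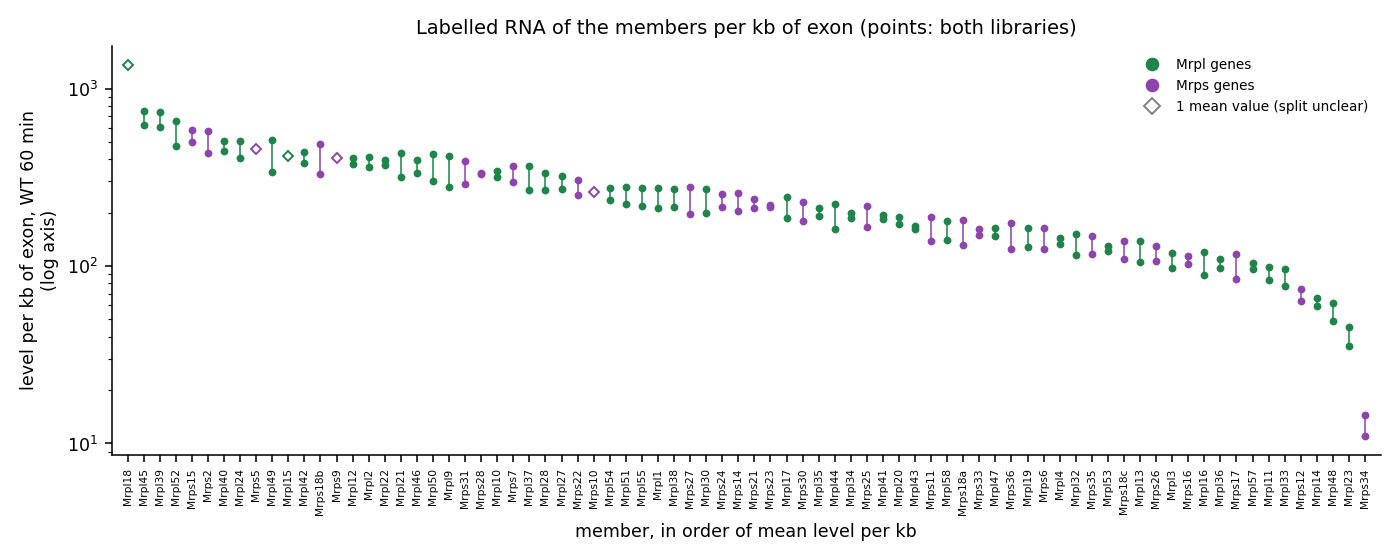
Level per kb of exon of each of the 78 members at 60 min in WT, on a log axis (scaled reads per kb), ordered from high to low, with both libraries as joined points and an open diamond where only 1 mean is known. Mrpl18 lies highest at 1366, Mrps34 lowest at 10.99 and 14.43, and both Mrpl and Mrps genes are spread over the range.

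Labelled RNA of the members grew with time in every genotype. On the spike-in scale the ratio of the 60 min level to the 10 min level had a median over the members of 4.6 in WT, 2.96 in KO and 7.02 in dcIDR. In WT it ran from 2.65 for Mrpl53 to 7.03 for Mrps18b, in KO from 1.58 for Mrps34 to 4.54 for Mrpl10, and in dcIDR from 3.64 for Mrps12 to 15.5 for Mrps18b. The dcIDR ratios divide by the dcIDR libraries of 10 min, which stood apart with the fewest gene reads per spike-in read. Most genes shared the growth with labelling time, and the median gene itself moved with genotype and time. Levels below are therefore set to a common median gene, and differences are log2 values relative to it, on which a change shared by all genes is removed.

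The first comparison asked which members differed between KO and WT, as the mean of the differences at the 4 labelling times. Mrpl19, Mrps25 and Mrps35 rose without any overlap between the libraries of both genotypes, all of them genes of chromosome 6, and Mrpl24 was the only member whose KO libraries all lay below WT. All 78 members passed the filter on low levels. At an adjusted p under 0.05 (limma, 22447 genes tested) 11 members were higher and 10 lower in KO, 21 of 78, where 32.2% of all genes passed, 15.4% higher and 16.8% lower. The members' median was −0.03 and that of all genes −0.01. Of the 49 Mrpl genes 6 were higher and 7 lower, and of the 29 Mrps genes 5 were higher and 3 lower. The members' share of calls lies near that of all genes.

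Mrpl19 (ENSMUSG00000030045, chromosome 6), a large subunit protein at the interface of the subunits, had levels with a lowest, median and highest value of 425.4, 495.1 and 533.9 over the 8 WT libraries, 639.8, 748.4 and 795.5 in KO and 330.6, 436 and 503.4 in dcIDR. Of the exonic bases of Mrpl19 36.0% lie in exons of Gcfc2, which rose by 0.73 in KO, so its reads may be shared. All KO libraries of Mrpl19 lay above all WT libraries, a separation seen for 3 members and for 3.13% of all genes. The difference of KO from WT was 0.60 ± 0.06 (SE; limma, adjusted p = 9.26e-09). Mrps25 (ENSMUSG00000014551, chromosome 6), a small subunit protein, had 643.1, 798.2 and 839.7 in WT against 938.4, 1094 and 1269 in KO, again without overlap. It rose by 0.51 ± 0.05 (limma, adjusted p = 2.96e-08), and 69.8% of its exonic bases lie in exons of Nr2c2, which rose by 0.35. Mrps35 (ENSMUSG00000040112, chromosome 6), also of the small subunit and without exonic overlap, had 671.3, 719.1 and 777.9 in WT against 941.7, 983.2 and 1034 in KO. It was the third member without overlap and rose by 0.45 ± 0.04 (limma, adjusted p = 4.98e-09). The remaining calls upward on these chromosomes were Mrpl35 at 0.37 ± 0.09, Mrpl51 at 0.35 ± 0.07 and, on chromosome 8, Mrpl34 at 0.44 ± 0.17 and Mrps31 at 0.25 ± 0.07. Mrpl53 and Mrps33 of chromosome 6 had 0.36 and 0.30 without passing.

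The position of a member went with its direction. Of the 9 members on chromosomes 6 and 8, 7 were higher and 0 lower in KO, with a median of 0.37, and all 9 values were positive. All 2228 genes tested on these chromosomes had the same median, 0.37, and 59.1% of them were higher and 4.35% lower. Of the other 69 members 4 were higher and 10 lower, with a median of −0.05, beside 10.6% higher, 18.1% lower and a median of −0.04 among the other 20219 genes. Why the genes of chromosomes 6 and 8 lay higher in KO was not tested. Nearby genes had values of their own: Gcfc2, which overlaps Mrpl19, rose by 0.73, Rbsn beside Mrps25 by 0.52, Mansc4 beside Mrps35 by 0.74 and Ncapd2, which starts 100 bp from Mrpl51, by 0.38, while Reep1 beside Mrpl35 had 0.03 and did not pass. Immt, which lies 4362 bp from Mrpl35, rose by 0.39 (limma, adjusted p = 2.05e-07).

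Away from those chromosomes, Mrpl2 (ENSMUSG00000002767, chromosome 17), a protein of the peptidyl transferase centre, rose most. Its levels were 257.6, 278.9 and 397.4 in WT against 370.1, 402.3 and 522.1 in KO, and the groups overlapped. The difference was 0.48 ± 0.12 (limma, adjusted p = 0.0025). Next to it Cul7 rose by 0.64 and Rrp36 by 0.61, while Klc4, which starts head to head with Mrpl2, had 0.18 and did not pass. Mrps27 (0.17 ± 0.07, adjusted p = 0.0494), Mrpl33 (0.17 ± 0.06, adjusted p = 0.0404) and Mrps22 (0.17 ± 0.06, adjusted p = 0.0374) passed closely by limma. Mrps27 is an RNA-binding pentatricopeptide repeat protein of the small subunit, and Mrps22 another small subunit protein.

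The differences of the 10 members that were lower in KO lay between −0.33 and −0.13. Mrpl24 (ENSMUSG00000019710, chromosome 3), which lies near the tunnel exit, had 605, 637.1 and 696.5 in WT against 533.7, 545.8 and 603.2 in KO, so that all KO libraries lay below all WT libraries, as for 2.91% of all genes. The difference was −0.20 ± 0.06 (limma, adjusted p = 0.00645). Of the exonic bases of Mrpl24 26.3% lie in exons of Rrnad1, which had −0.14 in KO (limma, adjusted p = 0.0371). Mrps2 of the small subunit had 656.1, 804.3 and 961.1 in WT against 595.1, 683.5 and 754 in KO, with overlap, and −0.25 ± 0.05 (limma, adjusted p = 0.000442). Mrpl16 of the large subunit had 195.9, 213.6 and 239.5 in WT against 139.8, 180 and 201.9 in KO, which overlapped in part, and −0.29 ± 0.08 (limma, adjusted p = 0.00832). Stx3, which lies 158 bp from Mrpl16, had −0.52. Mrpl43 (−0.31 ± 0.10), whose exons overlap those of the helicase gene Twnk, was called while Twnk itself had 0.01. Mrpl23 (−0.33 ± 0.13, adjusted p = 0.0478), Mrps23 (−0.32 ± 0.12), Mrpl39 (−0.22 ± 0.06), Mrpl28 (−0.20 ± 0.07), Mrps14 (−0.18 ± 0.06) and Mrpl15 (−0.13 ± 0.04, with 1 mean value for WT at 60 min) completed the calls downward. Mrps34 had −0.71 ± 0.28 without passing (limma, adjusted p = 0.0547). Of the members followed for their roles, Mrpl3, Mrpl10, Mrpl11, Mrpl12, Mrpl58, Mrps7, Mrps12, Mrps18b, Mrps18c and Mrps36 passed in neither mutant, with values from −0.20 (Mrps18c) to 0.13 (Mrpl3) in KO and from −0.23 (Mrps36) to 0.07 (Mrpl3) in dcIDR.

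These directions are relative to the median gene, which on the deposited spike-in scale lay 0.31 higher in KO. On that scale 20 members were higher and 0 lower in KO, where 30.5% of all genes passed, 27.6% higher and 2.90% lower, and the members' median of 0.27 stood beside 0.30 for all genes. None of the 10 calls downward passed there, and 7 of them turned positive. Leaving out 1 library at a time gave 13 (without library B of KO at 40 min) to 23 calls. Without 1 library the call was lost for Mrpl23 and Mrps27 in 18 of 24 cases, for Mrpl34 in 14, Mrpl33 in 11, Mrps22 in 10, Mrpl28 and Mrps23 in 8, Mrpl15 and Mrps14 in 6 and Mrpl43 in 2 (library A of WT at 60 min or B of KO at 20 min).

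**Figure D2:**
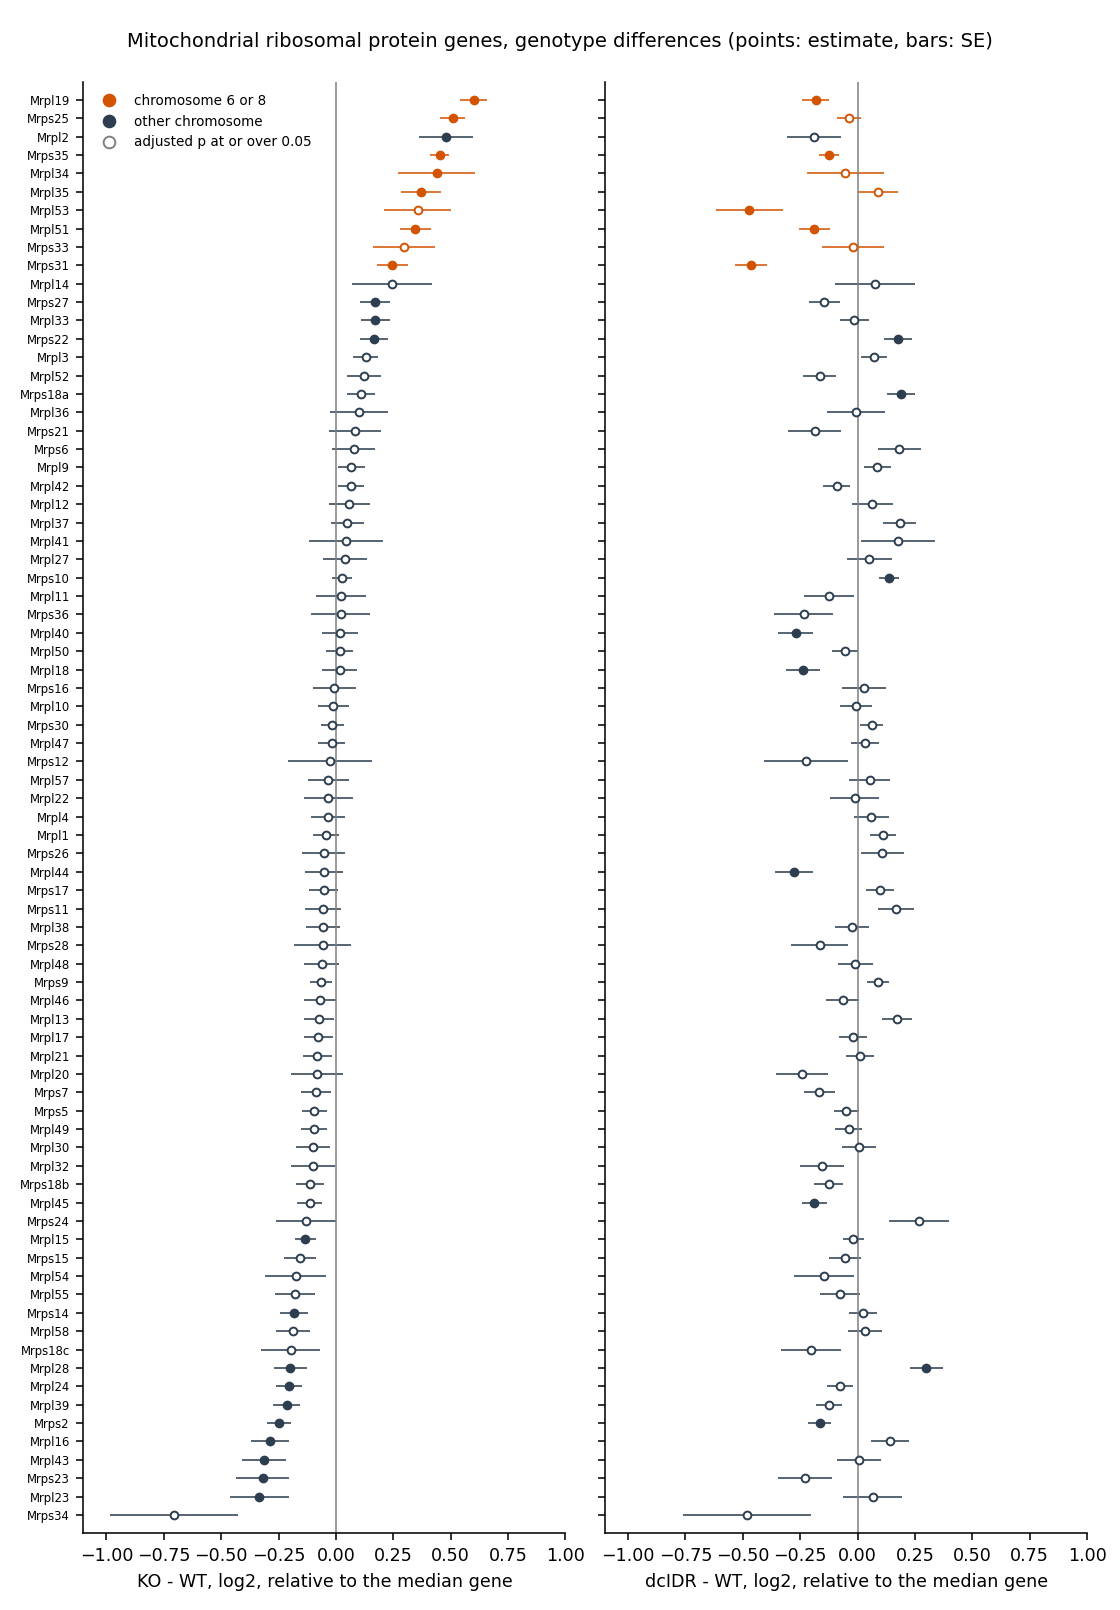
Difference from WT of KO (left) and dcIDR (right) for each of the 78 members, log2 relative to the median gene with SE bars, ordered by the KO difference. Genes of chromosomes 6 and 8 (orange) are all positive in KO and 7 of the 9 pass, while Mrpl53 and Mrps31 of the same chromosomes lie lowest among the dcIDR calls. Open symbols did not pass.

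**Figure D3:**
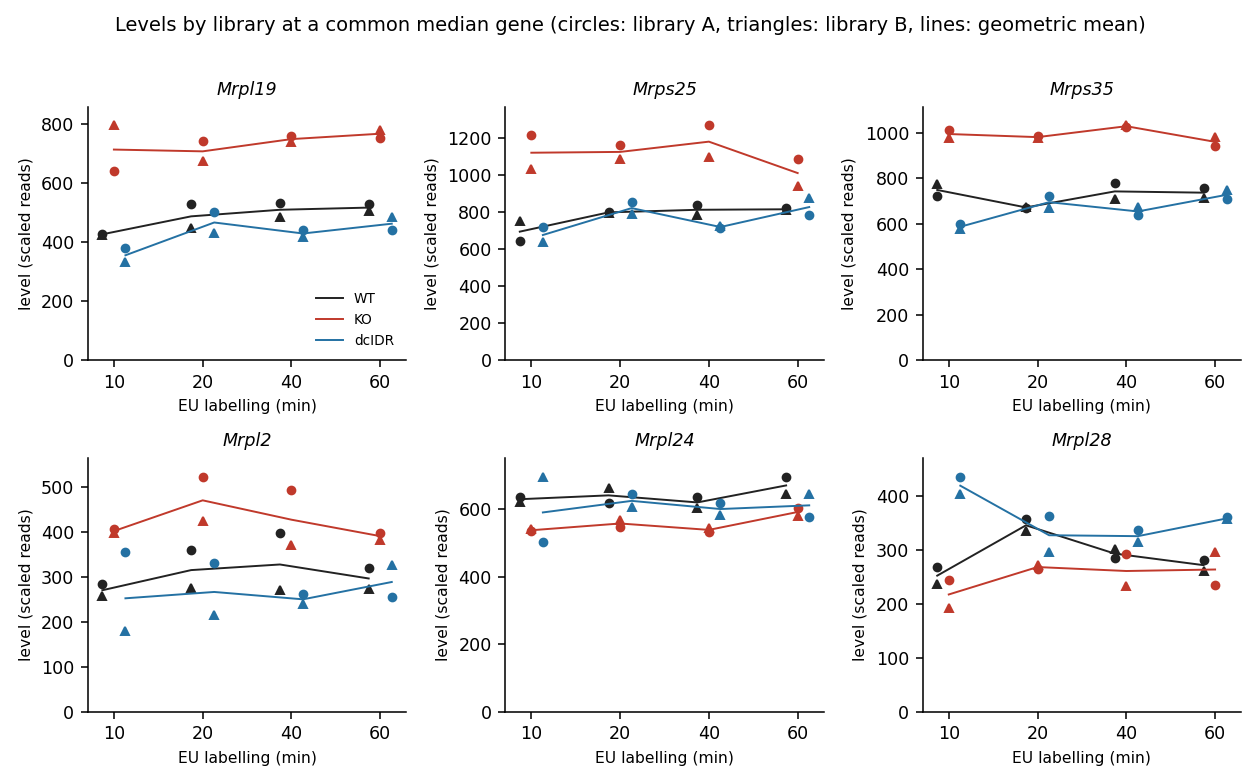
Level of 6 members (scaled reads at a common median gene) in every library by EU labelling time, with WT in black, KO in red and dcIDR in blue, circles and triangles for the 2 libraries and lines for their geometric mean. KO lies above WT at all times for Mrpl19, Mrps25 and Mrps35 and below it for Mrpl24, while Mrpl28 is lowest in KO and highest in dcIDR over the 8 libraries by median.

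The second comparison set dcIDR beside WT. Fewer members differed: 4 were higher and 10 lower, where 27.9% of all genes passed, 11.4% higher and 16.5% lower (limma, adjusted p under 0.05). The members' median was −0.02, as was that of all genes. In this comparison 0 members had all dcIDR libraries above or below all WT libraries, beside 1.14% and 1.66% of all genes. Mrps31 (ENSMUSG00000031533, chromosome 8), a small subunit protein, had levels of 498.9, 607.4 and 731.4 in WT (lowest, median, highest) against 340.9, 477.8 and 557.1 in dcIDR. The difference was −0.46 ± 0.07 (limma, adjusted p = 1.22e-05). Mrpl53 (ENSMUSG00000030037, chromosome 6), a protein of the L7/L12 stalk region, had 44.35, 77.78 and 107.9 in WT against 41.33, 51.2 and 69.84 in dcIDR, and −0.47 ± 0.15 (limma, adjusted p = 0.0163). With 88.0% of its exonic bases in exons of Ccdc142os and Gm42688, its reads may belong to them in part. Mrpl28 (ENSMUSG00000024181, chromosome 17), a large subunit protein, moved the other way, with 236.7, 283.1 and 356.6 in WT against 295.3, 357.9 and 434.9 in dcIDR and a rise of 0.30 ± 0.07 (limma, adjusted p = 0.00265). The gene 246 bp from Mrpl28, Tmem8, fell by 0.47 in dcIDR and by 1.27 in KO.

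Of the 49 Mrpl genes 1 was higher and 7 were lower in dcIDR, and of the 29 Mrps genes 3 were higher and 3 lower. Among those not yet described, Mrpl44, which carries an RNase III-like domain, had −0.28 ± 0.08, Mrpl40 −0.27 ± 0.08, Mrpl18 −0.24 ± 0.07, Mrpl51 −0.19 ± 0.07, Mrpl45 −0.19 ± 0.06 and Mrpl19 −0.18 ± 0.06. Mrps2 had −0.17 ± 0.05 and Mrps35 −0.13 ± 0.04. Mrps18a at 0.19 ± 0.06, Mrps22 at 0.18 ± 0.06 and Mrps10 at 0.14 ± 0.04 were higher. Mrpl18 and Mrps10 enter at 60 min in WT as 1 mean value. Of the 9 members on chromosomes 6 and 8, 5 were lower and 0 higher, with a median of −0.13 beside −0.12, 29.7% lower and 6.78% higher among all genes there. Of the other 69 members 4 were higher and 5 lower, beside 11.9% higher and 15.1% lower among the other 20219 genes. Without both dcIDR libraries of 10 min, an alternative chosen after seeing the data, 8 were higher and 8 lower, 16 of 78, where 26.9% of all genes passed, and 7 of the 14 calls held. Those lost were Mrpl28 (0.16, adjusted p = 0.172), Mrpl44 (−0.04, adjusted p = 0.763), Mrpl53 (−0.30, adjusted p = 0.178), Mrps18a, Mrps35, Mrpl51 and Mrpl19. On the deposited scale only Mrpl28 passed (0.47; limma, adjusted p = 0.0299), where 10.8% of all genes did. Leaving out 1 library at a time gave 8 calls (without library A of WT at 40 min), 9 (without B of dcIDR at 20 min or A of dcIDR at 60 min) and up to 19. The call was lost in 9 of 24 cases for Mrps22, 7 for Mrpl51, 6 for Mrps35, 5 for Mrpl19, Mrps10 and Mrps18a, 4 for Mrpl18, 3 for Mrpl53 and 1 for Mrps2.

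The mutants were also set beside each other. In dcIDR 13 members were higher and 16 lower than in KO, where 45.2% of all genes passed, 21.9% higher and 23.3% lower, and the members' median was 0.03 against 0.01 for all genes. Mrpl53 (−0.83 ± 0.15), Mrpl19 (−0.78 ± 0.06), Mrps31 (−0.71 ± 0.07), Mrpl2 (−0.67 ± 0.12) and Mrps35 (−0.58 ± 0.04) were lowest in dcIDR. In these 5 and in Mrps25 all dcIDR libraries lay below all KO libraries, which holds for 5.46% of all genes. Mrpl28 was highest at 0.50 ± 0.07 (limma, adjusted p = 2.81e-06), with 192.6 to 295.1 in KO and 295.3 to 434.9 in dcIDR, and it was the only member whose dcIDR libraries all lay above KO, as for 4.09% of all genes. Mrpl16 (0.43 ± 0.08), Mrpl23 (0.40 ± 0.13), Mrps24 (0.40 ± 0.13) and Mrpl43 (0.32 ± 0.10) followed, of which Mrpl23 and Mrps24 did not pass without library B of KO at 20 min, and Mrpl23 not without library A of dcIDR at 20 min. Of the 9 members on chromosomes 6 and 8, 8 were lower and 0 higher, and 66.5% of all genes there were lower. On the deposited scale 0 members were higher and 14 lower, beside 7.28% and 19.5% of all genes. The 3 genotype differences share their libraries pairwise and are not independent of each other.

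The time course was described by the slope of the level per doubling of labelling time, relative to that of the median gene, which was 0.80 in WT, 0.62 in KO and 0.99 in dcIDR on the spike-in scale. A positive value means that labelled RNA of a gene gained more with labelling time than that of the median gene. In WT 21 members had a higher slope than the median gene and 0 a lower one, with a median of 0.08 against 0.04 for all genes, of which 35.8% passed, 26.1% higher and 9.60% lower (limma, adjusted p under 0.05). In KO 7 were higher and 2 lower, with a median of 0.00 against 0.03, beside 20.7% and 7.19% of all genes (27.9% in either direction). In dcIDR 31 were higher and 0 lower, with a median of 0.07 against 0.05, beside 30.5% and 14.1% (44.5% in either direction). Without both dcIDR libraries of 10 min 10 members were higher in dcIDR and 0 lower, 9 of them among the 31, beside 21.2% and 4.77% of all genes. The counts also depend on the scale. With quantile normalization they were 5 higher and 7 lower in WT (15.2% and 13.9% of all genes), 4 and 10 in KO (11.2% and 10.2%), and 12 and 7 in dcIDR (20.4% and 18.2%). On the deposited scale, which keeps the growth shared by all genes, 78, 77 and 78 slopes passed, beside 94.9%, 89.6% and 96.8% of all genes.

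Mrps18b (ENSMUSG00000024436), a small subunit protein and 1 of 3 related Mrps18 genes, had the steepest slope in WT and dcIDR. Of its exonic bases 30.5% lie in exons of Gm16279, and Ppp1r10 starts head to head 45 bp away, so its reads may be shared. The WT levels of Mrps18b in libraries A and B were 275 and 336 after 10 min, 322 and 314 after 20 min, 535 and 481 after 40 min, and 520 and 576 after 60 min. In dcIDR they were 212 and 207, 326 and 326, 511 and 471, and 542 and 578 at the same times. Both libraries of each of these genotypes were higher at 40 and 60 min than at 10 and 20 min, with slopes of 0.36 ± 0.04 in WT (limma, adjusted p = 4.52e-07) and 0.55 ± 0.04 in dcIDR (limma, adjusted p = 2.27e-10). In KO the levels were 295 and 378, 360 and 363, 418 and 370, and 405 and 422, and the slope of 0.12 ± 0.04 did not pass (limma, adjusted p = 0.0519). Without the 10 min libraries the dcIDR slope was 0.50. The difference of slopes from WT did not pass for either mutant (KO −0.25, adjusted p = 0.121; dcIDR 0.19, adjusted p = 0.122; limma). Its relatives had other values: Mrps18a had slopes of 0.14 ± 0.04 in WT and 0.12 ± 0.04 in KO, which passed, and 0.07 ± 0.04 in dcIDR, which did not but did without its 10 min libraries (0.35), and Mrps18c had −0.12, −0.11 and −0.02, none of which passed.

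Mrpl3, a protein that reaches towards the peptidyl transferase centre, passed in all genotypes, at 0.26 ± 0.04 in WT, 0.18 ± 0.04 in KO and 0.26 ± 0.04 in dcIDR. So did Mrpl10, which forms the base of the L7/L12 stalk, at 0.20 ± 0.05, 0.21 ± 0.05 and 0.29 ± 0.05. Mrpl12, the stalk protein itself, which is also known to bind the mitochondrial RNA polymerase, had 0.10, −0.03 and 0.00, and Mrpl11 at the base of the stalk 0.06, −0.18 and 0.07, and none of these 6 passed. Mrps9 (0.25 ± 0.04 in WT, with 1 mean value at 60 min), Mrpl37 (0.25 ± 0.05) and Mrps22 (0.23 ± 0.04) were the next steepest in WT. Mrps7 of the head of the small subunit had 0.21 ± 0.05 in WT and 0.18 ± 0.05 in dcIDR, which passed, and 0.09 in KO. Mrpl58, a peptidyl-tRNA hydrolase that became part of the large subunit, had 0.19 ± 0.05 in WT, which passed, and 0.07 in both mutants. The WT slope of Mrpl58 rests on the 10 min libraries, without which it was −0.06. Without them the WT slopes of Mrpl10 (0.17), Mrps7 (0.08) and Mrps18a (0.00) did not pass either. Mrps12 had −0.06, −0.09 and −0.25, Mrps36 −0.14, −0.03 and −0.03 and Mrps34 0.02, −0.23 and −0.02, and none of these passed. The only slopes below the median gene that passed were those of Mrpl20 (−0.24 ± 0.08) and Mrpl13 (−0.18 ± 0.05) in KO. In dcIDR Mrpl32 (0.43 ± 0.07), Mrpl44 (0.41 ± 0.06) and Mrpl50 (0.32 ± 0.04) had the next largest values, in which the 10 min libraries stood apart from all later ones. Mrpl32 had levels of 244 and 145 at 10 min and 378 to 523 from 20 min on, and Mrpl50 266 and 245 and then 399 to 499. Without the dcIDR libraries of 10 min the slopes were 0.01, 0.10 and 0.08 and none of the 3 passed (limma, adjusted p = 0.973, 0.512 and 0.432), while Mrpl3 (0.24), Mrpl10 (0.29) and Mrps7 (0.29) did. Across the members slopes were higher for genes of higher level (Spearman 0.41 in WT, 0.31 in KO and 0.44 in dcIDR, a description across genes that share their libraries). Leaving out 1 library ended the call of Mrps18a in KO in 17 of 24 cases and in WT in 2 (library A of 10 min, B of 60 min), that of Mrpl58 in WT without library B of 10 min and that of Mrps7 in dcIDR without library B of 10 min.

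**Figure D4:**
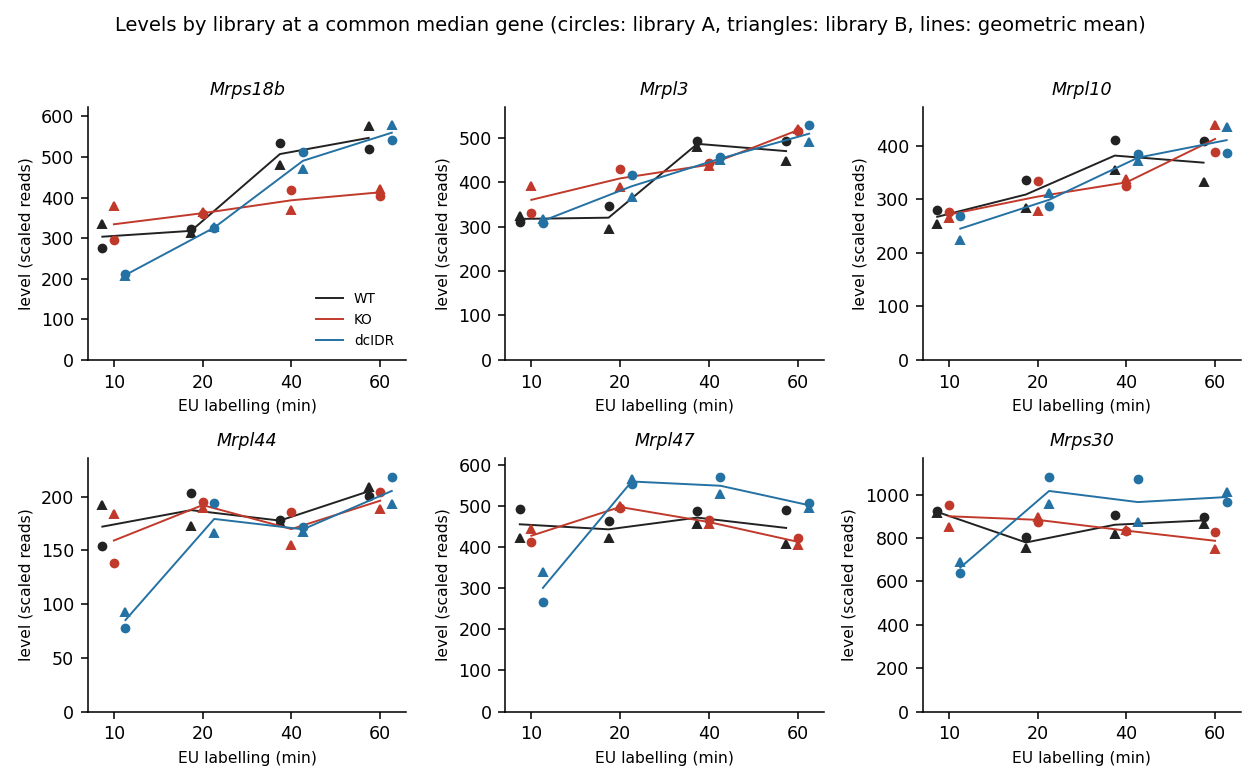
Level of 6 members (scaled reads at a common median gene) in every library by EU labelling time, with WT in black, KO in red and dcIDR in blue, circles and triangles for the 2 libraries and lines for their geometric mean. Mrps18b, Mrpl3 and Mrpl10 gain with time, Mrps18b from 207 and 212 to 542 and 578 in dcIDR, while Mrpl44, Mrpl47 and Mrps30 are low in dcIDR at 10 min only.

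Whether the time course differed between genotypes was tested by the difference of slopes. For KO against WT 0 of 78 members passed by limma (0.0356% of all genes did), 11 members had an unadjusted p under 0.05, as had 11.9% of all genes, and voom also called 0. Without library A of WT or of KO at 10 min 1 passed. For dcIDR against WT 3 members passed, where 1.84% of all genes did: Mrpl44 (0.35 ± 0.08, adjusted p = 0.0306), Mrpl47 (0.26 ± 0.06, adjusted p = 0.0211) and Mrps30 (0.21 ± 0.05, adjusted p = 0.0314), all by limma. Mrpl44 (ENSMUSG00000026248) had levels of 77.9 and 93.0 in dcIDR at 10 min and 166 to 218 from 20 min on, against 154 to 209 in all WT libraries. Its dcIDR levels at 10 min rest on 29 and 27 reads. Mrpl47 (ENSMUSG00000037531), a large subunit protein at the tunnel exit, had 266 and 341 in dcIDR at 10 min and 496 to 571 later, against 407 to 492 in WT. Of the exonic bases of Mrpl47 24.2% lie in exons of Actl6a and Ndufb5. Mrps30 (ENSMUSG00000021731) had 639 and 689 at 10 min and 871 to 1082 later, against 755 to 923 in WT. In each of them the 10 min libraries of dcIDR, which hold the fewest gene reads per spike-in read, were the low ones. Without those 2 libraries the differences were 0.04, −0.11 and −0.15 and none passed. On the deposited scale 0 members passed, beside 0.241% of all genes. Leaving out 1 library at a time gave 0 to 4 calls, with 0 without library B of WT, A of dcIDR or B of dcIDR at 60 min. Without library A of dcIDR at 10 min 3 passed, but none of these 3. Leaving out 1 library ended the call of Mrps30 in 9 of 24 cases, of Mrpl44 in 8 and of Mrpl47 in 5.

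Other genes of mitochondrial translation gave the following counts, to be read beside 15.4% higher and 16.8% lower in KO and 11.4% and 16.5% in dcIDR among all genes. In KO 1 of 5 mitoribosomal proteins under other symbols was higher and 0 lower (Ptcd3, 0.28, chromosome 6). Of 14 translation factors 2 were higher and 0 lower, the initiation factor Mtif2 at 0.51 ± 0.04 and the release factor Mtrf1 at 0.26 ± 0.08. Of 22 genes for assembly of the mitochondrial ribosome and modification of its RNA 3 were higher and 1 lower, among them Malsu1 (0.42 ± 0.06, chromosome 6), the helicase Ddx28 (0.35 ± 0.10, chromosome 8) and Rbfa (−0.28 ± 0.09). Of 20 genes for mitochondrial aminoacyl-tRNA synthesis 3 were higher, led by Cars2 (0.28 ± 0.06, chromosome 8), and 1 lower, Gatb (−0.20 ± 0.07). Of 11 genes for transcription and replication of mitochondrial DNA 2 were higher, Primpol (0.51 ± 0.06, chromosome 8) and Ssbp1 (0.44 ± 0.06, chromosome 6), and 1 lower. Of 83 nuclear genes of the respiratory chain 7 were higher and 7 lower, led by cytochrome c (Cycs, 0.62 ± 0.07, chromosome 6) and Cox6b2 (−0.45 ± 0.09). Of 85 genes for cytoplasmic ribosomal proteins 6 were higher and 13 lower. The list medians lay between −0.09 (cytoplasmic ribosomal proteins) and 0.04. The deposited scale gave other counts in KO: 20 higher and 0 lower for the respiratory chain, 9 and 1 for cytoplasmic ribosomal proteins, 6 and 0 for translation factors, 5 and 0 each for assembly and for synthetase genes, 3 and 0 for transcription and replication of mitochondrial DNA and 1 and 0 for proteins under other symbols. These are to be read beside 27.6% higher and 2.90% lower among all genes in KO on that scale.

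Among 11 tested regulators of nuclear genes for mitochondria, 4 were higher and 4 lower in KO. The former included Myc (0.39 ± 0.15) and Nrf1 (0.34 ± 0.04, chromosome 6), and the latter Gabpa (−0.16 ± 0.05), which encodes the DNA-binding part of GABP, and Yy1 (−0.16 ± 0.04). The deposited scale kept 4 calls upward and no call downward, and there Gabpa (0.15) and Yy1 (0.15) were positive without passing. On that scale 27.6% of all genes were higher and 2.90% lower in KO. In dcIDR 1 was higher, the coactivator Ppargc1b (0.66 ± 0.09), and 7 were lower, with Myc at −0.96 ± 0.15, Gabpb2 at −0.45 ± 0.05 and Nrf1 at −0.23 ± 0.04. Only Ppargc1b (0.84) and Myc (−0.79) also passed on the deposited scale, where 10.8% of all genes did. These are levels of labelled RNA, and activity of the factors was not measured. The other lists in dcIDR held 1 higher and 1 lower of 5 mitoribosomal proteins under other symbols (Dap3 0.18 ± 0.05, Gadd45gip1 −0.50 ± 0.14), 1 and 1 of 14 translation factors (Mtrf1l 0.25 ± 0.05, Gfm1 −0.17 ± 0.05), 0 and 3 of 22 assembly genes (Ddx28 lowest at −0.41 ± 0.10) and 1 and 4 of 20 synthetase genes (Nars2 0.30 ± 0.07, Sars2 −0.34 ± 0.07). Genes for transcription and replication of mitochondrial DNA were higher in 1 and lower in 4 of 11 (Polg 0.20 ± 0.04, Tefm −0.44 ± 0.10), the respiratory chain in 2 and 5 of 83 and cytoplasmic ribosomal proteins in 1 and 10 of 85. Without both dcIDR libraries of 10 min the last were 1 and 27 and assembly genes 3 and 1, where 26.9% of all genes passed in either direction. Each of these 7 lists held 0 to 2 higher and 0 lower genes on the deposited scale, where 10.8% of all genes passed in either direction.

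The lists separated more by slope, as the plot of slopes by list shows. Of all genes 26.1% were above the median gene and 9.60% below in WT, 20.7% and 7.19% in KO, and 30.5% and 14.1% in dcIDR. Assembly and RNA modification genes were above the median gene in 16 of 22 in WT, 8 in KO and 17 in dcIDR, with 0 below, and medians of 0.23, 0.12 and 0.21, led by Mrm1 (0.46 ± 0.11) in WT and Mterf3 (0.59 ± 0.04) in dcIDR. Translation factors were above it in 8, 5 and 8 of 14 with 0 below, and synthetase genes in 10, 8 and 9 of 20 with 0, 0 and 2 below. Cytoplasmic ribosomal proteins lay on the other side, with 37, 69 and 71 of 85 below and 1, 0 and 3 above, and medians of −0.16, −0.21 and −0.23. The respiratory chain lay between them, with 12, 2 and 11 of 83 above and 3, 6 and 18 below, and medians of −0.01, −0.05 and −0.07. On this scale the members' medians of 0.08, 0.00 and 0.07 lay above those of cytoplasmic ribosomal proteins in every genotype. Without both dcIDR libraries of 10 min the dcIDR counts fell to 9 assembly genes and 4 translation factors above, and to 22 cytoplasmic ribosomal proteins below, with medians of 0.22, 0.12 and −0.17. Of all genes 21.2% were then above and 4.77% below in dcIDR. With quantile normalization 79 cytoplasmic ribosomal proteins were below in each genotype, and translation factors were above in 2, 1 and 5. Among all genes 13.9%, 10.2% and 18.2% were then below and 15.2%, 11.2% and 20.4% above in WT, KO and dcIDR. These are descriptions, and no test compared the lists.

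**Figure D5:**
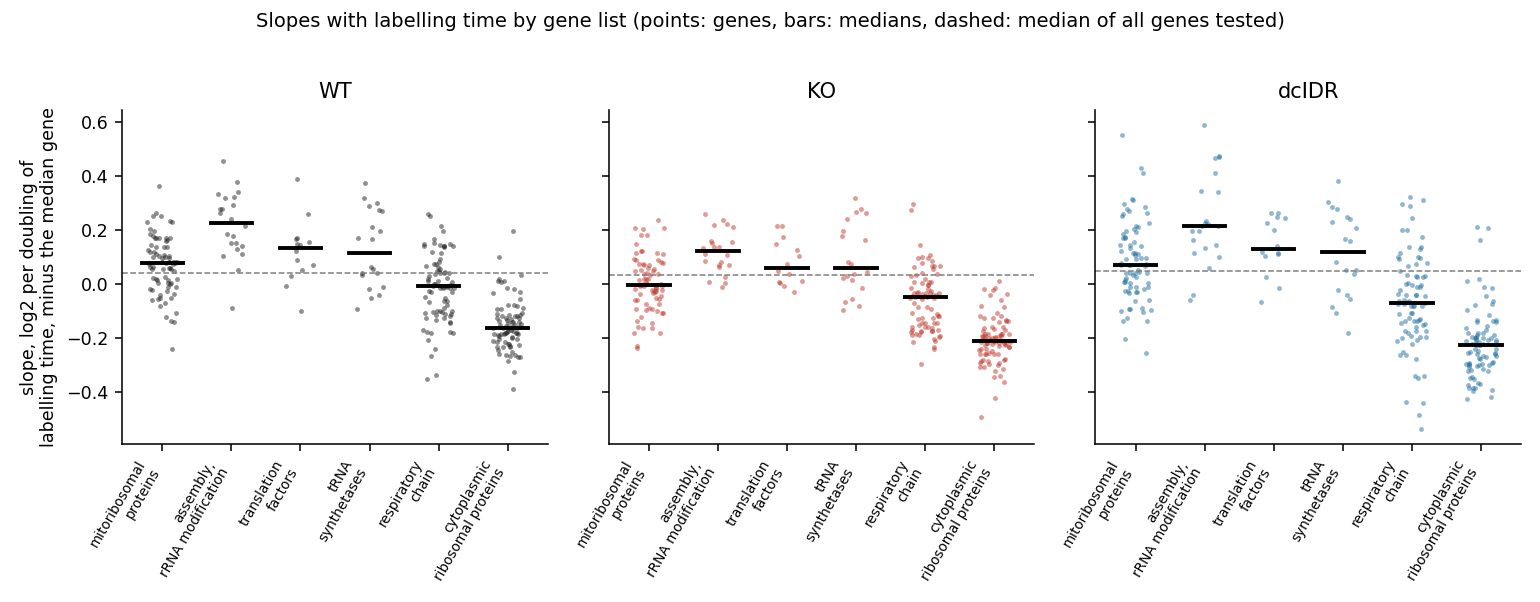
Slope of the level per doubling of EU labelling time, log2 minus that of the median gene, for the genes of 6 lists in WT, KO and dcIDR, with bars for list medians and a dashed line for the median of all genes tested. Medians of mitoribosomal proteins are 0.08, 0.00 and 0.07, and those of cytoplasmic ribosomal proteins −0.16, −0.21 and −0.23.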

How the data were processed

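Nascent RNA was labelled with EU, captured with a Click-iT kit and made into libraries with a SMARTer stranded total RNA kit, with EU-labelled Drosophila RNA as spike-in, per the labels' protocols. Per the submitters' processing notes, HISAT2, SAMtools and Picard were used with GRCm39. The counter, its use of strand and the gene annotation were not given in the sources used here. The authors deposited log2 ratios of each genotype at 20, 40 or 60 min to its 10 min value, with both libraries combined, per the file headers and values. The column prefix ki was taken as dcIDR, the remaining genotype.

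Whole reads of each library were worked out from these ratios (a constant of 40000 per spike-in read and 1 added), with a largest difference of 4.4e-15 between deposited and rebuilt values. This worked for every gene with a value except 1 in KO. On simulated data at 30, 300 and 1000 mean reads the group sums were right for 100% of 300 genes each, and the division between libraries was right or marked unclear for 100, 100 and 99%. A library's replicate number is not known: A has more spike-in reads, B fewer. Where the division was not clear, as for Mrps5, Mrpl15, Mrps10, Mrpl18 and Mrps9 in WT at 60 min, the group entered as 1 mean. Entries with 1 read (33769) are fewer than those with 2 (74916), so mates may have been counted apart, and counting intervals are not given.

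Symbols matched 51948 of 56941 gene identifiers. Levels were scaled to 11714 spike-in reads. A gene was tested if its mean level reached 10 and at least 6 libraries had reads, which 22447 genes and 78 of 78 members passed. log2(level + 1), which understates changes of low genes, was centred on each library's median tested gene and fitted with limma 3.58.1 (R 4.3.3, Python 3.11.15) with 12 group coefficients over 24 libraries and a trended prior, and p-values were adjusted by Benjamini-Hochberg over all genes tested, with a threshold of 0.05. The fit was tested on simulated data. A genotype difference is the mean over the 4 times. The deposited spike-in scale, other filters and pseudocounts, voom, quantile normalization and left-out libraries were tried. Members and lists were chosen with earlier results of these data known. Members were named for the 10 largest differences from WT in each direction, 5 for slopes in WT and between mutants, 3 for slope differences, 5 for level, and for 13 fixed roles, and pathway genes for the largest calls. Repeats were not used here. The annotation at hand is of GRCm38, so positions are given only for promoters.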

Additional observations from a re-analysis of the deposited data

Results flagged for a closer look

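For 3 members the slope with labelling time differed between dcIDR and WT by the test of that difference. The values were 0.3479 for Mrpl44, 0.2633 for Mrpl47 and 0.2058 for Mrps30 per doubling of labelling time (limma, adjusted p = 0.0306, 0.0211 and 0.0314). Without both dcIDR libraries of 10 min they were 0.04, −0.11 and −0.15.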

How the results depend on the processing

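No paired analysis was possible because the deposited columns carry no replicate numbers. On the deposited scale 1 member differed between dcIDR and WT, 14 between dcIDR and KO and 0 by slope between dcIDR and WT, and 78, 77 and 78 slopes passed in WT, KO and dcIDR, a scale on which the growth shared by all genes is kept. Its signs turned in KO minus WT for Mrpl16 (0.0205), Mrps2 (0.0616), Mrpl39 (0.0934), Mrpl24 (0.1050), Mrpl28 (0.1092), Mrps14 (0.1270) and Mrpl15 (0.1758), in dcIDR minus WT for Mrps2 (0.0058) and Mrps35 (0.0454). Slopes on that scale contain the growth of the median gene and were positive for all 78 members, so they do not bear on the sign relative to it. Among the members named, values below 0 relative to the median gene became positive there for Mrpl12 (KO 0.5898), Mrpl11 (KO 0.4355), Mrps12 (WT 0.7417, KO 0.5270, dcIDR 0.7308), Mrps18c (0.6768, 0.5105, 0.9614), Mrps36 (0.6637, 0.5921, 0.9577) and Mrps34 (dcIDR 0.9615). Quantile normalization gave 12, 14 and 19 slopes in WT, KO and dcIDR. Without genes of chromosomes 4, 6, 8, 11 and X, and so with fewer members, 11 differed in KO minus WT, 8 in dcIDR minus WT and 19 in dcIDR minus KO, and 13 slopes passed in WT and 4 in KO. The share of all genes was not worked out for this setting or without the 10 min libraries. Counts under both settings therefore have no background beside them. Without the 10 min libraries 5 slopes passed in KO, 10 in dcIDR and 1 slope difference of dcIDR from WT, and signs turned for Mrpl58 (slope in WT −0.0553), Mrps18a (slope dcIDR minus WT 0.3483), Mrps18b (dcIDR minus KO 0.2020), Mrpl47 (−0.1061) and Mrps30 (−0.1450). Without both dcIDR 10 min libraries the last 3 had the same values, 10 slopes passed in dcIDR and 0 slope differences. The slope differences of dcIDR from WT numbered 1 by voom, 1 with only the genotypes compared and 0 without a trended prior (chosen after seeing the data). The causes were not tested.

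Leaving out 1 library at a time gave 13 to 23 calls for KO minus WT, 8 to 19 for dcIDR minus WT, 24 to 31 for dcIDR minus KO, 17 to 23, 7 to 11 and 23 to 35 slopes in WT, KO and dcIDR, and 0 to 1 and 0 to 4 slope differences of KO and dcIDR from WT. Of 66 named calls, 29 were lost in at least 1 of these cases, 32 on the deposited scale (9 with a turned sign), 23 without the 10 min libraries, 13 without both dcIDR 10 min libraries, 11 with no filter on low levels, 16 without a trended prior, 14 by quantile normalization, 7 with only the genotypes compared, 5 by voom and 0 with a pseudocount of 5 or with unclear divisions entered as 2 values (chosen after seeing the data). Low counts limit Mrps34, Mrps12, Mrpl14 and Mrpl53, and Mrpl44 in dcIDR at 10 min.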
